A study of Mus musculus with 12 samples.

Results

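The 44 interferon-stimulated genes described here were looked up by symbol in the table of 55228 gene symbols, and all 44 were found. Their RNA was followed in 12 libraries of cultured mouse Tregs, 3 for each of 4 groups. EV Tregs carried an empty retroviral vector that expresses the surface reporter Thy1.1, and after day 4 their medium either lacked IL-2 (the group EV no IL-2) or still held it (the group EV+IL-2). In 1G12t and 3A10t Tregs the same vector encoded an orthogonal IL-2 variant, 1G12 or 3A10, tethered through a stretch of CD25 to the orthogonal IL-2Rβ chain, and the cells were kept without IL-2 after day 4. All 4 groups came from 1 pool of CD4+ T cells from lymph nodes of 16 NOD.Foxp3-GFP mice, from which cells positive for Foxp3.GFP and CD25 were sorted. The labels give no age for these mice, and the study's methods state one only for donor mice of other names. The pool was divided among 3 sorting machines, each sorted portion was activated on its own and became 1 replicate, and each was divided among the constructs on day 2. Exogenous IL-2 was washed away on day 4, and the final sort of cells positive for Thy1.1 took place on day 9, after 5 days with or without IL-2. The replicates were therefore separate cultures of 1 pool of animals, the same replicate number marks 1 sort, and p-values measure the spread between cultures only.

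Interferons are secreted proteins that bind receptors on the cell surface and activate the kinases Jak1, Jak2 and Tyk2. These phosphorylate STAT factors, which enter the nucleus and bind either with Irf9, as the complex ISGF3, at interferon-stimulated response elements (ISRE) or as dimers at gamma-activated sites (GAS). The genes switched on, the interferon-stimulated genes, encode sensors of foreign nucleic acid, proteins that block viral replication, modifiers of other proteins, and regulators of the response. IL-2, on which Tregs depend, signals through its own receptor, Jak1 and Jak3 mainly to Stat5, whose dimers bind the same kind of GAS sequence.

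Expression is given as scaled TPM, that is TPM (transcript abundance relative to the library total) as deposited, divided by a scaling factor of each library, and fold changes are on log2(scaled TPM + 1), which understates the change of genes of low expression. A gene was tested where its mean TPM over the 12 libraries was at least 1, which held for 15043 genes and for 40 of the 44 members. The 4 members below it were Ifit3b, Oas2, Mx1 and Rsad2. The same 40 members reach a mean of 1 scaled TPM over the 9 libraries outside EV+IL-2, so none entered through the EV+IL-2 group alone, and 0 of the 44 members were listed at 0 in any library. The libraries held between 30393 and 43285 genes above 0 TPM, with scaling factors from 0.854 to 1.09, and depth is unknown because TPM keep none. The 6 Treg markers summed to between 1596 and 2242 scaled TPM in every library, with Foxp3 between 369 and 510. Markers of B cells, myeloid cells, plasmacytoid dendritic cells, CD8 T cells and NK cells summed to at most 16.6, 3.65, 18.6, 6.51 and 0.520 scaled TPM, the highest being Cd79b and Tcf4. In bulk RNA, fewer cells that express a gene and less RNA per cell cannot be told apart.

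A single library stood apart for the members. EV+IL-2 replicate 1 was the highest of its group for 33 of the 40 members tested (82.5%), against 29.4% of all genes tested, and was over 1.5 times both other replicates for 10 members (25%), against 1.56% of all genes. Replicate 1 of the same sort was the highest of its group for 32.5% of members in EV no IL-2, 12.5% in 1G12t and 45% in 3A10t. For the comparisons with EV+IL-2, the members' counts and medians are given with and without this library.

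Promoter sequences are shown because both factor-binding motifs of the pathway can be read directly in them. RefSeq promoter windows on GRCm38.p6, from 250 bases before to 50 after the start site, were at hand for 33 of the 44 members. The letters GAAA, any 2 bases and GAAA again, taken as ISRE and searched on both strands, were in 15 of the 33 windows (45.5%), against 3.99% of 27025 genes with a window and 3.73% of 9334 genes that were also tested here. TTCNNNGAA, taken as GAS, was in 9 of the 33 (27.3%), against 9.55% and 8.36%. In 12 of the 15 members the ISRE match lay wholly before the start site. A match is a description of letters, and binding was not measured. The first set shows members with ISRE matches in capitals, each written 5′ to 3′ on the strand of its gene. Isg15, Bst2 and Irgm2 are members whose RNA differed between groups, and Ifit1, Ifit3 and Ifit3b are neighbouring genes, of which Ifit1 and Ifit3 were far higher in EV+IL-2 replicate 1 than in any other library of that group.
Isg15: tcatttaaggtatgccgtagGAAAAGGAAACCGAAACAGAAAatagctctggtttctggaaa
Bst2: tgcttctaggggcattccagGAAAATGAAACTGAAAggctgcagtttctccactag
Irgm2: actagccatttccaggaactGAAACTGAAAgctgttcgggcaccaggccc
Ifit1: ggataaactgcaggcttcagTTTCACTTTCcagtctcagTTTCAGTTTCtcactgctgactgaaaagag
Ifit3: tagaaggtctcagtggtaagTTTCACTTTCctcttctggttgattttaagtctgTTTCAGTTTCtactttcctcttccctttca
Ifit3b: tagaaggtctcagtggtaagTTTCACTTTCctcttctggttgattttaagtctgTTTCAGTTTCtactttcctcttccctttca

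The Isg15 stretch, at chr4:156200855-156200916 on the minus strand, holds 3 overlapping matches, the nearest ending 57 bases before the start site. The Bst2 stretch (chr8:71537567-71537622, minus strand) holds 2 matches, and a GAS match overlaps the match farther from the start site. The Irgm2 stretch (chr11:58214893-58214942, plus strand) holds 1. Ifit1 (chr19:34640765-34640833), Ifit3 (chr19:34583353-34583436) and Ifit3b (chr19:34607749-34607832), all on the plus strand, hold 2 matches each. In all 3 Ifit stretches the matches are on the other strand and so appear as TTTC, 2 bases and TTTC. The Ifit3 and Ifit3b stretches are the same 84 bases.

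The second set shows GAS matches, in capitals, upstream of Irf8, the member that fell in EV+IL-2, of Isg20, which rose, and of Irf1.
Irf8: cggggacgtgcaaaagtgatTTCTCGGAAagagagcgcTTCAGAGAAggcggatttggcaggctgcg
Isg20: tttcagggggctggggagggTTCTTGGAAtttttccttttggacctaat
Irf1: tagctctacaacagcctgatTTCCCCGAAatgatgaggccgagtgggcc

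They lie at chr8:120736167-120736233, chr7:78913331-78913379 and chr11:53769904-53769952, all on the plus strand, and Irf8 holds 2 matches. The ISRE letters are in none of the windows of these 3 genes.

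Members spanned a wide range of expression in all groups. Over the 12 libraries, Ifi27l2a had the highest mean, 454 scaled TPM (314 to 618), followed by Sp100 at 333, Ifi35 at 195, Ifi47 at 175, Ly6a at 155 and Irf1 at 122. The classic antiviral effectors were at the other end. Rsad2, the radical-SAM enzyme viperin, averaged 0.289, Mx1, a GTPase that blocks influenza virus, 0.355, Ifit3b 0.447 and Oas2 0.615 scaled TPM. Some values carry reads that copies share. Of the 50-base words in the longest transcript, 51.2% of Ifit3 and 44.5% of Ifit3b were shared with each other, and 57.6% of Oas1a with Oas1g. The split of reads between these genes is therefore uncertain. Parp9 and Dtx3l start 681 bases apart on opposite strands and overlap in some exons, and reads from overlapping strands cannot be told apart where strand was not kept.

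**Figure D1:**
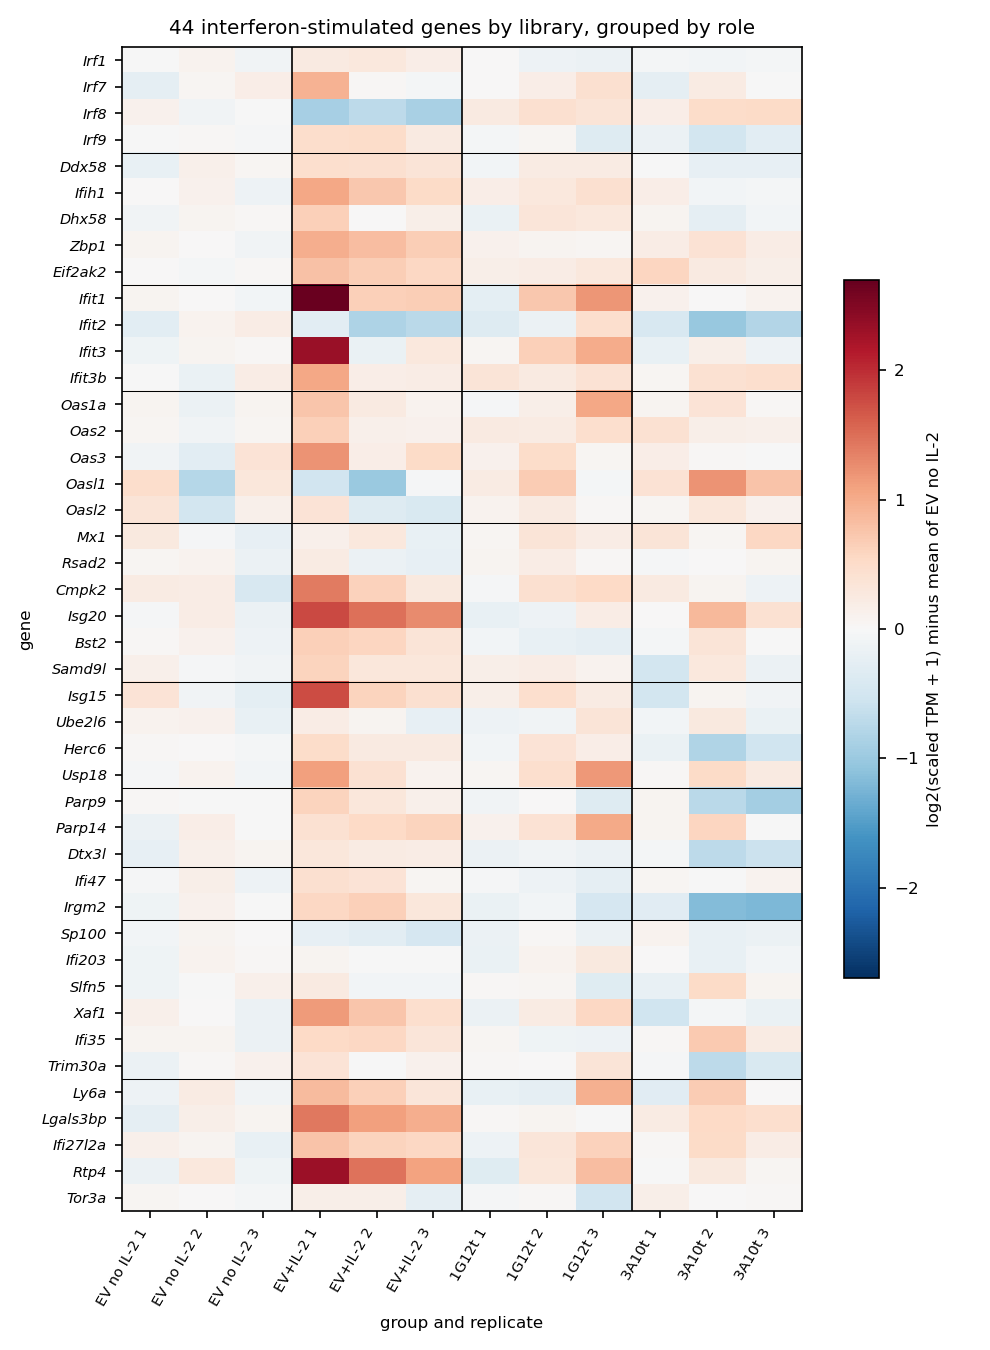
Each cell shows log2(scaled TPM + 1) of 1 member (rows, grouped by role with thin lines) in 1 library (columns, 3 per group), minus the mean of the 3 EV no IL-2 libraries, in red where higher and blue where lower. The EV+IL-2 columns are mostly red with replicate 1 the darkest, and Irf8 is blue there, whereas Irgm2 is blue in 3A10t replicates 2 and 3.

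Continued IL-2 was compared with its withdrawal in cells that carry the same empty vector. By their median, the members tested were higher with IL-2. They were chosen with earlier results of these data known. A second list of 56 interferon-induced genes tested, which holds no member, had a median log2 fold change of −0.04, with 46.4% above 0. At an adjusted p under 0.05 (limma, Benjamini-Hochberg over all genes tested), 12 of the 40 members differed (30%), against 13.3% of all genes tested. Of these, 11 rose (27.5%, against 8.17% of all genes) and 1 fell (2.5%, against 5.13%). The fold change was above 0 for 35 members (87.5%, against 45.9% of all genes), and the median log2 fold change was 0.41 over the members and −0.01 over all genes tested. In 24 members (60%) all 3 EV+IL-2 libraries lay above all 3 of EV no IL-2, against 19.6% of all genes, and in 2 members all lay below, against 20% of all genes. At the study's own threshold, which asks for p below 0.01 and a change of more than 0.25 on the log2 scale, 11 members rose and 2 fell, against 8.99% and 6.1% of all genes (15.1% in either direction). With the replicate block, 10 members were called, against 13.1% of all genes. Without EV+IL-2 replicate 1, 6 members were called, 5 up and 1 down (15%, against 8.26% of all genes), and the median was 0.28. Leaving out EV+IL-2 replicate 2 gave 7 members called (17.5%, against 8.66% of all genes). Leaving out EV no IL-2 replicate 3 gave 6 (15%, against 8.39%).

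**Figure D2:**
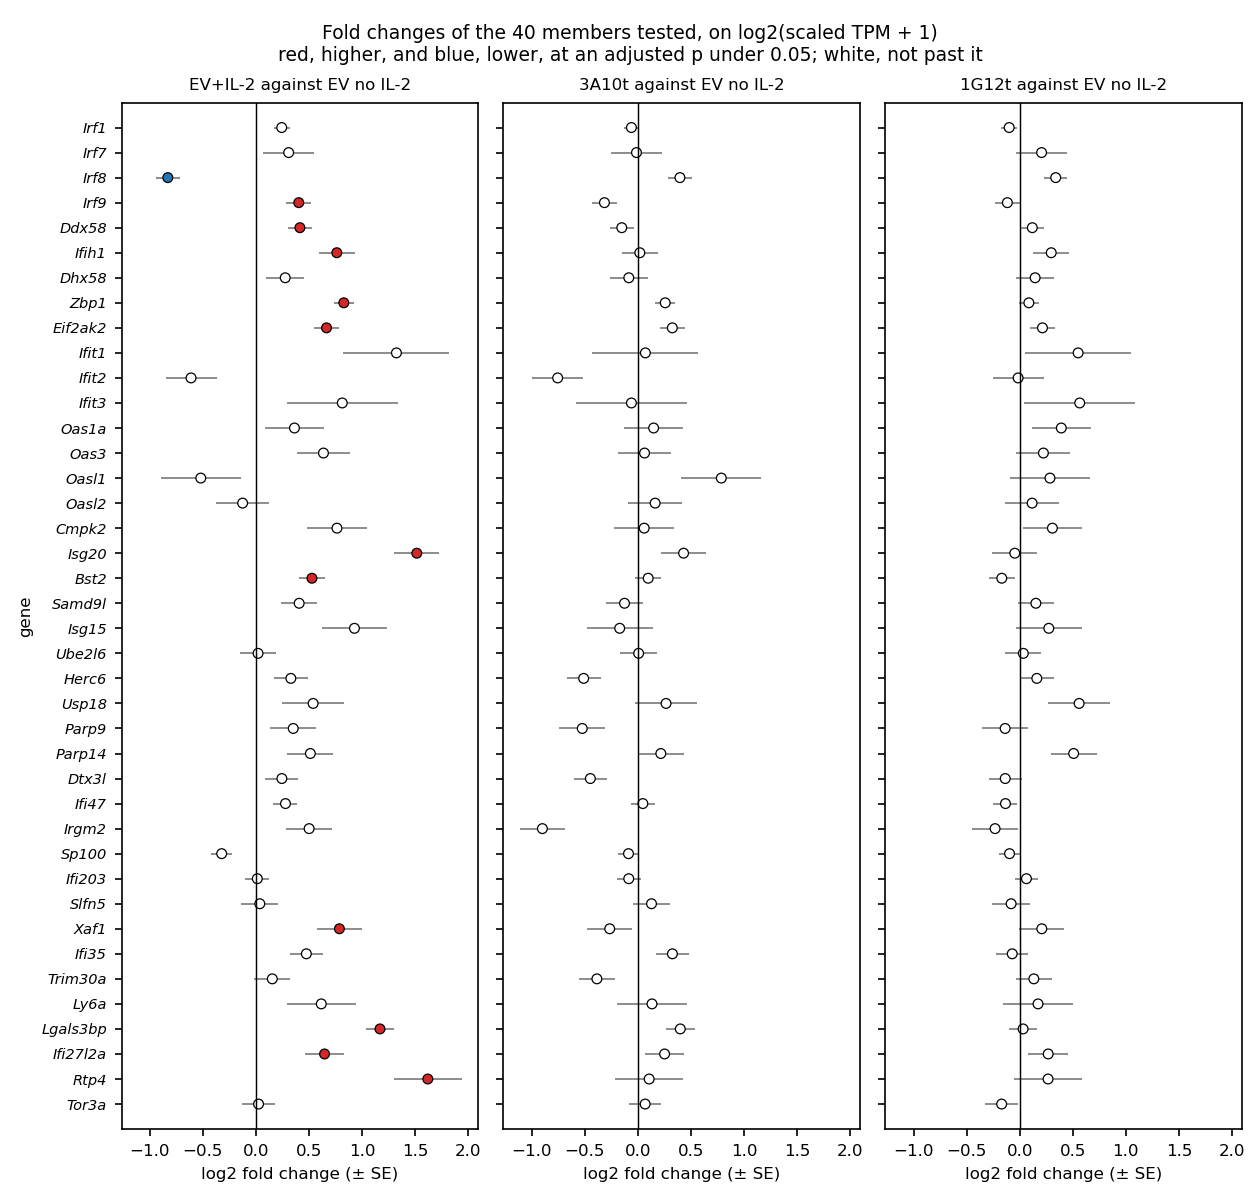
Each point is the log2 fold change of 1 of the 40 members tested, on log2(scaled TPM + 1), with bars of 1 standard error, for EV+IL-2, 3A10t and 1G12t, each against EV no IL-2. Red points are higher and blue points lower at an adjusted p under 0.05. The 11 red points and the 1 blue point, Irf8, are all in the EV+IL-2 panel, and the other panels hold white points only.

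The 4 transcription factors among the members split by direction. Irf8, which drives myeloid and B cell programmes and interferon-γ responses, fell. It was at 12.9, 10.9 and 11.6 scaled TPM in EV no IL-2 replicates 1, 2 and 3, 5.82, 6.84 and 5.90 in EV+IL-2, 14.1, 16.2 and 15.1 in 1G12t and 13.5, 17.0 and 17.1 in 3A10t. All 3 EV+IL-2 libraries lay below the other 9, and the log2 fold change of EV+IL-2 against EV no IL-2 was −0.83 (SE 0.11, adjusted p = 0.00059, limma). Irf9, the DNA-binding subunit of ISGF3, rose, from 59.5, 60.6 and 58.5 in EV no IL-2 to 82.8, 84.4 and 70.9 in EV+IL-2, with 57.2, 61.6 and 46.8 in 1G12t and 52.9, 42.2 and 48.6 in 3A10t. Its log2 fold change was 0.40 (SE 0.12, adjusted p = 0.046, limma), and it was called without EV+IL-2 replicate 3 but not without any other of the 6 libraries compared. Irf1, a factor that interferon-γ induces, missed the threshold at 120.0 ± 7.65 and 142 ± 5.30 scaled TPM (mean ± SD, n = 3), although the 2 groups did not overlap (adjusted p = 0.055, limma). Irf7, the factor that amplifies type I interferon production, was at 33.7, 17.5 and 16.5 in the EV+IL-2 replicates, of which only replicate 1 lay above the range of 14.3, 17.7 and 19.6 in EV no IL-2.

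Sensors of nucleic acid were the role with the most calls, 4 of 5. Zbp1, which binds Z-form nucleic acid and can start necroptosis, was at 53.3, 50.8 and 46.9 scaled TPM in EV no IL-2 against 101, 90.8 and 79.7 in EV+IL-2, 54.8, 53.3 and 52.1 in 1G12t and 57.7, 65.7 and 57.8 in 3A10t. The 3 EV+IL-2 libraries were the highest of the 12, with a log2 fold change of 0.83 over EV no IL-2 (SE 0.10, adjusted p = 0.00024, limma). Ifih1, the long double-stranded RNA sensor MDA5, was low in every group, at 1.47, 1.64 and 1.23 in EV no IL-2 against 4.05, 3.04 and 2.48 in EV+IL-2, 1.75, 1.99 and 2.28 in 1G12t and 1.77, 1.33 and 1.34 in 3A10t. Its group mean rose 2.21-fold (log2 fold change 0.76, SE 0.17, adjusted p = 0.013, limma), a call lost when replicate 1 of EV+IL-2 or replicate 3 of EV no IL-2 was left out.

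Eif2ak2, the kinase PKR that halts translation on double-stranded RNA, was at 4.56, 4.29 and 4.65 in EV no IL-2 against 8.49, 7.66 and 7.08 in EV+IL-2, 5.14, 5.33 and 5.68 in 1G12t and 7.21, 5.48 and 5.14 in 3A10t. It rose by a log2 fold change of 0.67 (SE 0.12, adjusted p = 0.0035, limma), although 3A10t replicate 1 was within the EV+IL-2 range. Ddx58, the RNA sensor RIG-I, was at 18.2, 23.1 and 21.9 in EV no IL-2 against 29.3, 28.8 and 27.0 in EV+IL-2, 19.9, 24.5 and 24.5 in 1G12t and 20.7, 18.0 and 17.9 in 3A10t. The EV+IL-2 libraries were the 3 highest (log2 fold change 0.41, SE 0.11, adjusted p = 0.033, limma), and the call held without EV no IL-2 replicate 2 but not without any other of the 6 libraries compared. Dhx58, the regulator LGP2 of the same family, was at 17.2, 10.6 and 12 in EV+IL-2 and 9.78, 11.2 and 10.8 in EV no IL-2, and the groups overlapped.

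Of the 6 members with other antiviral activities, 4 were tested and 2 rose. Isg20, an RNA exonuclease, was at 26.5, 31.1 and 24.1 scaled TPM in EV no IL-2 against 95.8, 77.6 and 66.9 in EV+IL-2, 23.5, 24.4 and 31.2 in 1G12t and 27.1, 50.4 and 36.5 in 3A10t. Every EV+IL-2 library lay above the 9 others, and the group mean was 2.94 times that of EV no IL-2 (log2 fold change 1.52, SE 0.21, adjusted p = 0.00082, limma). Bst2, or tetherin, which holds budding virions at the cell surface, was at 91.7, 97.4 and 81.7 in EV no IL-2 against 142, 135 and 115 in EV+IL-2, 85.6, 78.2 and 76.4 in 1G12t and 87.3, 115 and 89.1 in 3A10t. It rose by a log2 fold change of 0.53 (SE 0.12, adjusted p = 0.016, limma), which was not called when replicate 1 or 2 of EV+IL-2 or replicate 3 of EV no IL-2 was left out. Cmpk2, a mitochondrial nucleotide kinase, at 17.1, 9.59 and 7.29 against 7.06, 6.90 and 4.09, and Samd9l, a poxvirus restriction factor, at 40.3, 32.9 and 32.7 against 29.1, 25.5 and 24.3, lay wholly above EV no IL-2 without passing the test. Mx1 and Rsad2, the members of this role that were not tested, were at 0.332, 0.470 and 0.0492 and at 0.473, 0.133 and 0.0886 in the EV+IL-2 replicates, and at 0.452, 0.175 and 0.0372 and 0.324, 0.351 and 0.139 in those of EV no IL-2.

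Of the 5 members that encode membrane, secreted or other proteins, 3 rose. Rtp4, a chaperone of membrane receptors, was at 8.39, 11.6 and 8.56 scaled TPM in EV no IL-2 against 50.4, 27.8 and 21.2 in EV+IL-2, 7.29, 11.8 and 17.6 in 1G12t and 9.41, 11.6 and 9.81 in 3A10t. Its group mean was 3.48 times that of EV no IL-2 (log2 fold change 1.62, SE 0.32, adjusted p = 0.0068, limma), and although replicate 1 was 2.06 times the mean of replicates 2 and 3, the call held without it. Lgals3bp, a secreted glycoprotein that binds galectins, was at 36.6, 48.6 and 45.6 in EV no IL-2 against 117, 94.5 and 86.8 in EV+IL-2, 44.1, 45.8 and 43.1 in 1G12t and 50.5, 62.9 and 59.8 in 3A10t. The 3 EV+IL-2 libraries were well clear of the rest (log2 fold change 1.17, SE 0.14, adjusted p = 0.00022, limma).

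Ifi27l2a, the most abundant member, was at 397, 383 and 314 in EV no IL-2 against 618, 553 and 536 in EV+IL-2, 327, 455 and 560.3 in 1G12t and 372, 522 and 415 in 3A10t, and 1G12t replicate 3 was within the EV+IL-2 range. It was called without the replicate block (log2 fold change 0.65, SE 0.19, adjusted p = 0.043, limma) and not with it (adjusted p = 0.060, limma), nor when any of the 6 libraries compared was left out. Ly6a, the surface antigen Sca-1, was at 229.7, 198 and 159 against 114, 147 and 118, and Tor3a, an interferon-responsive ATPase, at 28.9, 28.6 and 21.4 against 26.6, 25.6 and 24.6. Neither passed the test. Among the 6 nuclear members and regulators, Xaf1, a partner of the apoptosis inhibitor XIAP, rose from 17.5, 16.1 and 14.2 in EV no IL-2 to 36.6, 27.4 and 22.2 in EV+IL-2, against 14.2, 18.8 and 23.8 in 1G12t and 10.6, 15.2 and 13.9 in 3A10t. Its log2 fold change was 0.79 (SE 0.21), with an adjusted p of 0.033 without and 0.058 with the replicate block (limma), and of the 6 libraries compared only EV+IL-2 replicate 3 could be left out without losing the call. Sp100, a scaffold of nuclear bodies, lay wholly lower in EV+IL-2, at 311, 296 and 262 against 342, 378 and 366, and passed the study's threshold but not the adjusted one (adjusted p = 0.055, limma).

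**Figure D3:**
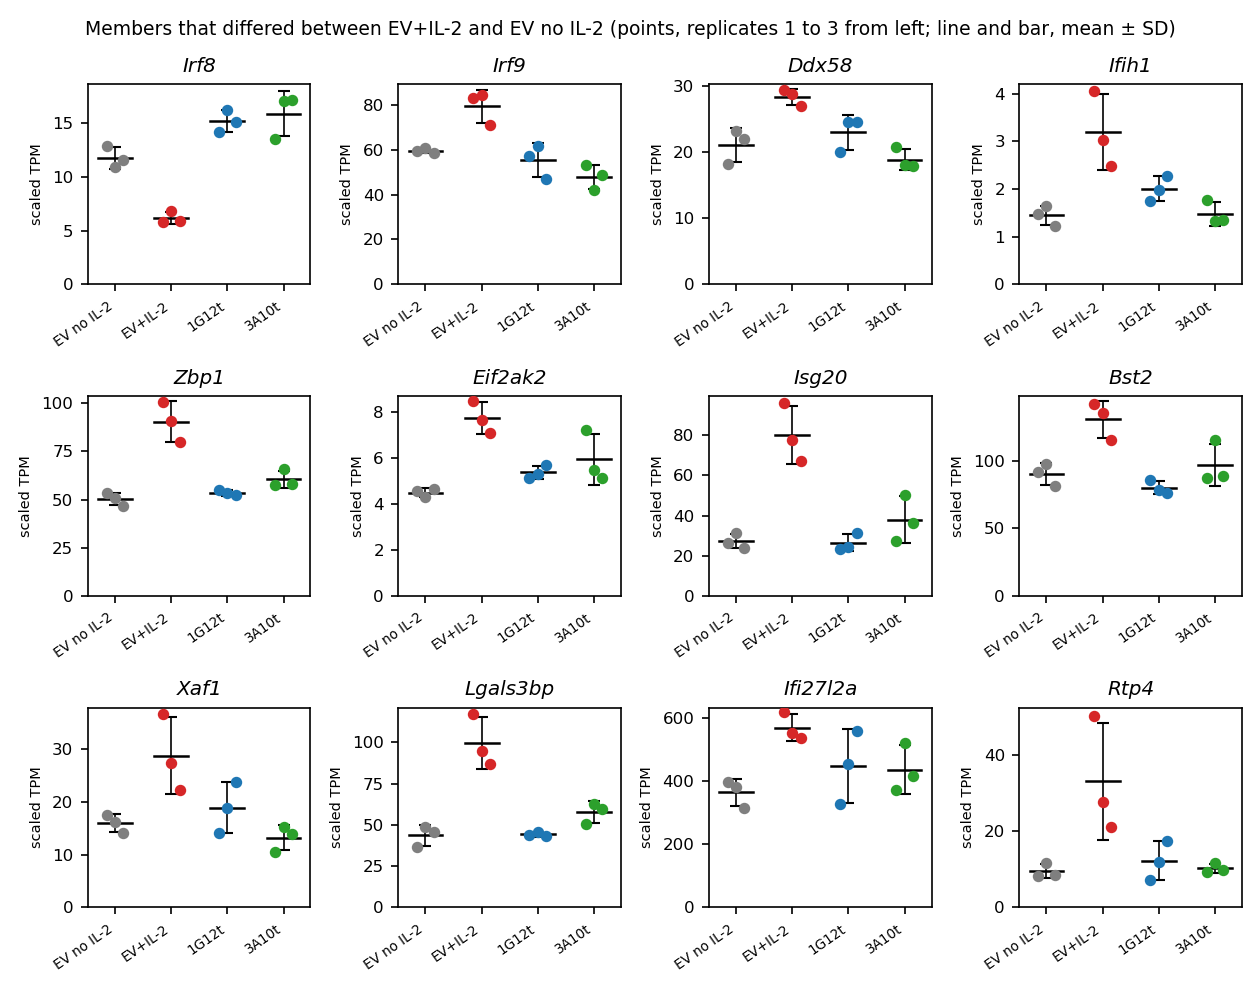
Each panel gives scaled TPM (axes from 0) of 1 of the 12 members that differed between EV+IL-2 and EV no IL-2, with points for replicates 1 to 3 from left to right and a line and bar for the mean ± SD of each group. EV+IL-2 is the lowest group for Irf8 and has the highest mean in the 11 other panels, and its replicate 1 is the top point in most of them.

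In 5 of the roles no member was called. None of the 3 IFIT members tested, of the 4 OAS members tested, of the 4 members of the ISG15 system, of the 3 ADP-ribosylation members and of the 2 GTPases passed the adjusted threshold, although 2, 1, 1, 1 and 2 of them had an unadjusted p under 0.05 (26.3% of all genes), and 0 of the 16 passed the study's threshold. The values show a single high library in several of them. Ifit1, a protein that binds viral RNA caps and blocks their translation, was at 12, 2.24 and 2.25 scaled TPM in EV+IL-2 replicates 1, 2 and 3, against 1.16, 1.06 and 0.966 in EV no IL-2. Ifit3, its partner, was at 8.44, 0.654 and 1.29 against 0.727, 0.984 and 0.920. Replicate 1 was 5.36 and 8.69 times the mean of replicates 2 and 3 for these genes, and for Ifit3 replicate 2 lay below all of EV no IL-2. Ifit2 was at 5.18, 3.21 and 3.55 against 5.15, 6.98 and 7.60.

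Isg15, a ubiquitin-like protein that is attached to other proteins, was at 17.2, 7.16 and 6.26 scaled TPM in EV+IL-2 and 5.93, 4.01 and 3.50 in EV no IL-2. The groups did not overlap, but replicate 1 was 2.56 times the mean of the others and the adjusted p was 0.076 (limma). Usp18, which removes Isg15 and restrains the interferon receptor, was at 20.6, 12.2 and 9.68 against 8.83, 9.73 and 8.45. Herc6, the ligase that attaches Isg15 in mice, was at 16.3, 13.5 and 13.4 against 11.5, 11.3 and 10.8, and Ube2l6, its conjugating enzyme, at 31.2, 28.6 and 22.9 against 28.6, 29.2 and 23.4. Of these 4, Isg15 and Herc6 lay wholly above EV no IL-2, and the other 2 overlapped it.

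The OAS enzymes make short oligoadenylates that activate RNase L. Oas3 was at 8.25, 3.53 and 4.77 scaled TPM in EV+IL-2 against 2.74, 2.30 and 4.21 in EV no IL-2, and Oas1a at 3.13, 1.92 and 1.62 against 1.58, 1.22 and 1.60. Oasl1 (0.494, 0.0715 and 1.10 against 1.97, 0.263 and 1.64) and Oasl2 (2.92, 1.39 and 1.28 against 2.86, 1.16 and 2.32), OAS-like proteins, varied as much within groups as between them. Parp9 and its partner Dtx3l, which act together in ADP-ribosylation and ubiquitination, and Parp14 lay wholly above EV no IL-2 in all 3 EV+IL-2 libraries, with log2 fold changes of 0.35, 0.24 and 0.51 that did not pass the test. The immunity-related GTPases Irgm2 and Ifi47, of a family that acts against intracellular pathogens, had log2 fold changes of 0.50 and 0.28, also not past it. The 4 remaining nuclear members, Ifi203, Slfn5, Ifi35 and Trim30a, ran from 0.01 to 0.48 with none called.

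**Figure D4:**
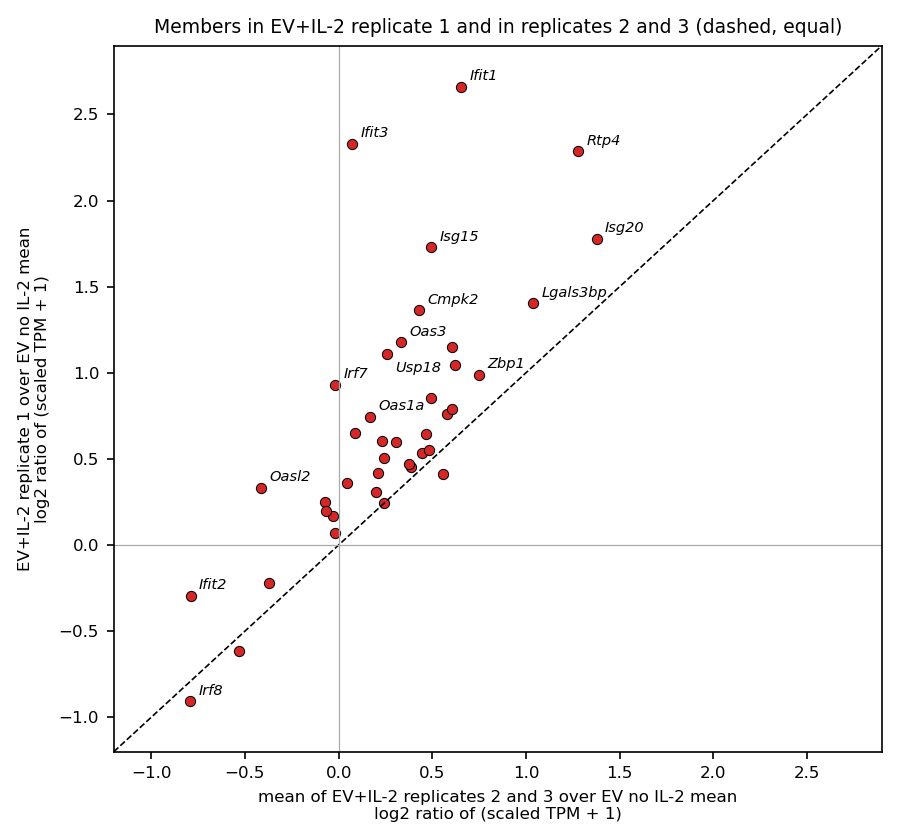
For each of the 40 members tested, the vertical axis gives EV+IL-2 replicate 1 and the horizontal axis the mean of EV+IL-2 replicates 2 and 3, both as the log2 ratio of (scaled TPM + 1) over the EV no IL-2 mean, with a dashed line where they are equal. Ifit3, Ifit1, Isg15 and Cmpk2 lie far above the line and near the middle of the horizontal axis, whereas Isg20, Lgals3bp and Zbp1 are high on both axes and Irf8 is low on both.

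The replicate difference was itself uneven over the members. EV+IL-2 replicate 1 exceeded both other replicates by over 1.5 times for Irf7, Ifit1, Ifit3, Oas1a, Oas3, Oasl2, Cmpk2, Isg15, Usp18 and Rtp4. Only Rtp4 of these 10 was called in EV+IL-2 against EV no IL-2. The 6 members called without that library were Irf8, Zbp1, Eif2ak2, Isg20, Lgals3bp and Rtp4, and these were also called under each of the 15 alternatives run. The median log2 ratio of the members over the EV no IL-2 mean was 0.60 in replicate 1, 0.34 in replicate 2 and 0.26 in replicate 3, against −0.01, −0.01 and −0.0039 over all genes tested. Within EV+IL-2 the median SD of the members on the log2 scale was 0.22, against 0.11 over all genes tested, whereas in EV no IL-2 the medians were 0.13 and 0.12. B cell marker sums ran from 10.3 to 12.7 scaled TPM in EV+IL-2, wholly above the 9.19 to 10.1 of EV no IL-2. Myeloid sums ran from 0.542 to 1.28 in EV+IL-2 and from 0.672 to 1.91 in EV no IL-2. Those of plasmacytoid dendritic cells ran from 13.2 to 15.0 and from 12.1 to 13.8. The part of such cells in the replicate difference was not tested.

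The tethered constructs were compared with EV no IL-2 to see what they changed when IL-2 was absent. For 3A10t, limma called 0 of the 40 members (2.05% of all genes tested, 0.452% higher and 1.6% lower, and 2.67% with the replicate block, which also called 0 members), 11 had an unadjusted p under 0.05 (27.5%, against 26% of all genes), and the study's threshold was passed by 4 members (9.5% of all genes, 2.83% higher and 6.67% lower). Those 4 were Irf8, higher, and Ifit2, Herc6 and Irgm2, lower. The median log2 fold change was 0.05 over the members and 0.03 over all genes, and with TPM as deposited, without further scaling, −0.07 and −0.09. For 1G12t, limma again called 0 members (0.0199% of all genes, 0.0133% higher and 0.00665% lower), 2 had an unadjusted p under 0.05 (7.04% of all genes), 0 passed the study's threshold (1.36%, 1.13% higher and 0.226% lower), and the medians were 0.14 and −0.0038. Without 1G12t replicate 3 these medians were 0.06 and −0.0063.

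Some members did not overlap EV no IL-2, although none was called. All 3 libraries of 3A10t lay above all 3 of EV no IL-2 for 4 of the 40 members and below for 4. In 1G12t they lay above for 3 and below for 0. The share of all genes with such a separation is not given for these comparisons, so the values below are descriptive only. Irgm2 was at 18.3, 9.70 and 9.32 scaled TPM in 3A10t replicates 1, 2 and 3, against 21.1, 25.1 and 22.9 in EV no IL-2 against 34.2, 36.4 and 28.8 in EV+IL-2 and 20.2, 21.9 and 16.6 in 1G12t. Replicates 2 and 3 of 3A10t were the lowest of the 12 libraries, and the change from EV no IL-2 was −0.90 on the log2 scale (SE 0.21, adjusted p = 0.060, limma). Ifit2 was at 4.52, 2.69 and 3.30 in 3A10t and Herc6 at 9.73, 5.94 and 7.45, all below EV no IL-2. Irf8 lay wholly above EV no IL-2 in both 1G12t and 3A10t, with log2 fold changes of 0.34 and 0.40 that did not pass the adjusted threshold.

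The counts for 3A10t changed when its replicate 1 was left out. Without 3A10t replicate 1, limma called 11 members in 3A10t against EV no IL-2 (27.5%, against 23.1% of all genes), 4 higher and 7 lower. The 4 were Irf8, Isg20, Ifi35 and Lgals3bp, and the 7 were Irf9, Ifit2, Herc6, Parp9, Dtx3l, Irgm2 and Trim30a. In the 3A10t replicates Parp9 was at 27.3, 15.4 and 13.4, Dtx3l at 21.6, 13.3 and 14.5 and Trim30a at 20.9, 12.8 and 15.8 scaled TPM, with replicate 1 the highest each time. The 3A10t libraries also differed in make-up, since their 10 most abundant genes held 10.8%, 13.5% and 12% of TPM in replicates 1, 2 and 3, against 8.85% to 9.92% in the 9 other libraries, and replicate 2 had the lowest scaling factor of the 12, 0.854. The part of this in the members' values was not tested. For Lgals3bp the 3A10t values of 50.5, 62.9 and 59.8 were all above EV no IL-2. In 1G12t, replicate 3 exceeded both others by over 1.5 times for Ifit1, Ifit2, Oas1a, Usp18, Parp14 and Ly6a (15% of members, against 6.28% of all genes), and Ly6a, for example, was at 109, 107 and 246 in its replicates.

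Set against EV+IL-2, both tethered groups were lower in many members. These comparisons and that of EV+IL-2 with EV no IL-2 share the EV+IL-2 libraries, so they are not independent of each other. In 3A10t, 19 of the 40 members differed (47.5%, against 23.4% of all genes tested), 2 higher (5%, against 10.3%) and 17 lower (42.5%, against 13%), with a median log2 fold change of −0.46 over the members and 0.00 over all genes. In 1G12t, 12 differed (30%, against 20.6% of all genes), 1 higher (2.5%, against 9.69%) and 11 lower (27.5%, against 10.9%), with medians of −0.36 and 0.02. Without EV+IL-2 replicate 1, 11 members were called in 3A10t (27.5%, against 12.7%) and 8 in 1G12t (20%, against 12.9%), and the members' medians were −0.34 and −0.15, against 0.00 and 0.01 over all genes. With the replicate block 18 and 12 members were called, against 24.7% and 20.9% of all genes. The second list of 56 interferon-induced genes tested, which holds no member, did not show this shift in its median. Its median log2 fold change against EV+IL-2 was −0.05 in 3A10t, with 44.6% above 0, and 0.06 in 1G12t, with 64.3% above 0.

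**Figure D5:**
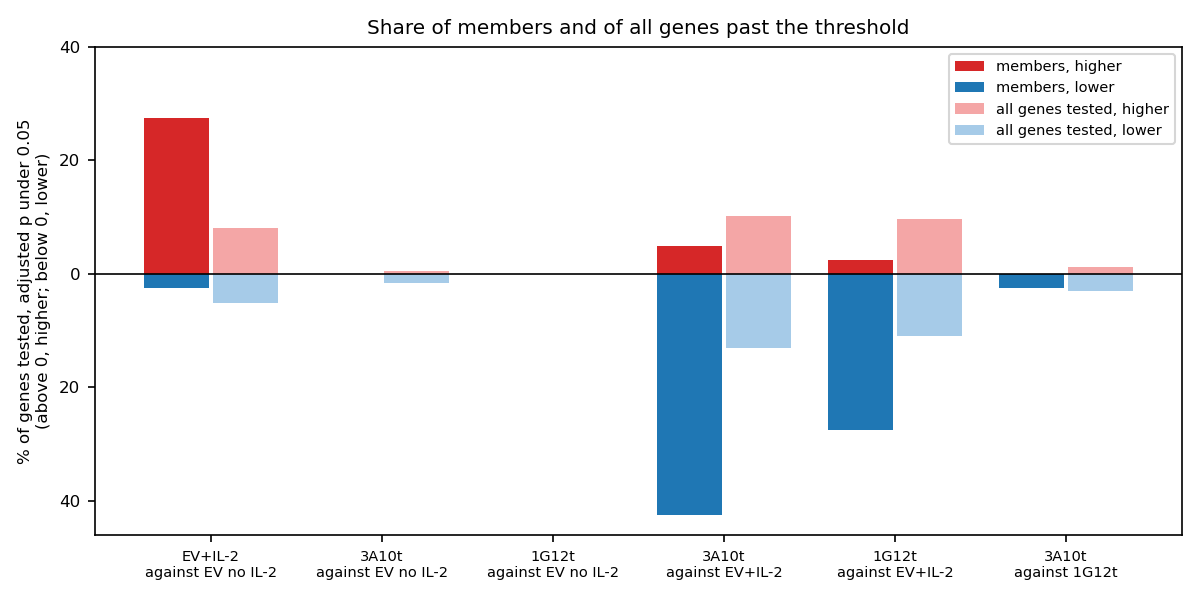
Bars give the percentage of genes tested that passed an adjusted p under 0.05 in each of the 6 comparisons, above 0 for higher and below 0 for lower, in dark colours for the 40 members tested and in light colours for all 15043 genes tested. The members' bars exceed those of all genes for higher in EV+IL-2 against EV no IL-2 and for lower in both tethered groups against EV+IL-2. Members have no bar where a tethered group is compared with EV no IL-2, and in 3A10t against 1G12t their bar is the single gene Herc6.

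The members that rose in EV+IL-2 over EV no IL-2 and were lower than EV+IL-2 in both 1G12t and 3A10t numbered 6: Irf9, Zbp1, Isg20, Bst2, Lgals3bp and Rtp4. Their log2 fold changes in 3A10t against EV+IL-2 were −0.72, −0.57, −1.08, −0.43, −0.77 and −1.51 in that order, and in 1G12t they were −0.52, −0.74, −1.56, −0.70, −1.14 and −1.35. The adjusted p (limma) ran from 0.0020 to 0.029 in 3A10t and from 0.00026 to 0.013 in 1G12t. In 3A10t, Bst2 was not called without EV+IL-2 replicate 1 or 2 or without 3A10t replicate 1 or 3, and in 1G12t, Rtp4 was not called without 1G12t replicate 1. The other calls of these 6 members against EV+IL-2 held without any single library, whereas the rise of Irf9 and Bst2 over EV no IL-2 did not, as given above.

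Irf8, which fell in EV+IL-2, was higher than EV+IL-2 in 3A10t (log2 fold change 1.23, SE 0.11, adjusted p = 5.4e-05, limma) and in 1G12t (1.17, SE 0.11, adjusted p = 5.5e-05, limma), and it was called under each of the 15 alternatives in both. Irf1 was lower than EV+IL-2 in both tethered groups although it had not passed the test against EV no IL-2. It was at 142, 147 and 137 scaled TPM in EV+IL-2, 120.2, 109 and 107 in 1G12t and 116, 113 and 116 in 3A10t, with log2 fold changes of −0.34 (SE 0.074, adjusted p = 0.0086, limma) and −0.30. The 3A10t call was lost without EV+IL-2 replicate 1 or 2. Irgm2 was the other member that was lower in both without being called in EV+IL-2 against EV no IL-2, with log2 fold changes of −0.73 (SE 0.21, adjusted p = 0.034, limma) in 1G12t and −1.40 (SE 0.21, adjusted p = 0.0013, limma) in 3A10t. Its 1G12t call was lost without EV+IL-2 replicate 1 or 2 and when each 1G12t library was left out in turn.

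Another 6 members were lower than EV+IL-2 in 3A10t and were called neither in 1G12t against EV+IL-2 nor in EV+IL-2 against EV no IL-2. They were Isg15, Herc6, Parp9, Dtx3l, Samd9l and Trim30a, so that Isg15 and its ligase and the Parp9 and Dtx3l pair were among them. In 1G12t, Parp9 (24.5, 26.4 and 20.4 scaled TPM), Dtx3l (19.9, 20.9 and 19.9) and Samd9l (29.5, 30.4 and 28.0) also lay wholly below EV+IL-2. Of the 6, only Herc6 was called between 3A10t and 1G12t, so a difference between the constructs is not shown for the rest. Isg15 was at 2.84, 4.64 and 4.05 scaled TPM in 3A10t and 4.99, 6.34 and 5.27 in 1G12t, against 17.2, 7.16 and 6.26 in EV+IL-2. Its log2 fold change in 3A10t was −1.10 (SE 0.31, adjusted p = 0.027, limma), and that call was lost without EV+IL-2 replicate 1 and without 3A10t replicate 1 or 3. Herc6 was at 9.73, 5.94 and 7.45 in 3A10t and 10.6, 14.9 and 12.7 in 1G12t, against 16.3, 13.5 and 13.4 in EV+IL-2, with a log2 fold change of −0.84 (SE 0.16, adjusted p = 0.0044, limma). Parp9 (−0.88, SE 0.22, adjusted p = 0.017, limma) and Dtx3l (−0.69, SE 0.16, adjusted p = 0.010, limma) were called as well, and Parp9 was not called without EV+IL-2 replicate 1 or 3A10t replicate 2 or 3. Samd9l was called at an adjusted p of 0.045 and not with the replicate block (0.056, limma), and Trim30a, a regulator of NF-κB signalling, had a log2 fold change of −0.54. Both calls were lost when each EV+IL-2 library was left out in turn, that of Samd9l also without 3A10t replicate 1 or 3, and that of Trim30a without 3A10t replicate 2 or 3. In the fit of the 6 libraries compared alone, Isg15, Parp9, Dtx3l, Samd9l, Trim30a, Isg20, Bst2 and Oasl1 were not called in 3A10t against EV+IL-2, with an adjusted p (limma) of 0.076 for Dtx3l and 0.055 for Isg20.

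Of the members that rose in EV+IL-2, Ddx58, Ifih1 and Xaf1 were lower than EV+IL-2 in 3A10t only, and Eif2ak2 in 1G12t only. The log2 fold changes in 3A10t were −0.57 for Ddx58, −0.74 for Ifih1 (SE 0.17, adjusted p = 0.011, limma) and −1.05 for Xaf1 (SE 0.21, adjusted p = 0.0060, limma), and in 1G12t they were −0.30, −0.47 and −0.58. Eif2ak2 had −0.45 in 1G12t (SE 0.12, adjusted p = 0.020, limma) and −0.34 in 3A10t. None of these 4 differed between 3A10t and 1G12t at an adjusted p under 0.05, so a difference between the constructs is not shown for them. Ifi47 (164, 153 and 142 scaled TPM) and Ifi35 (174, 155 and 153) were lower than EV+IL-2 in 1G12t, with log2 fold changes of −0.41 and −0.55, whereas in 3A10t Ifi47 was at 175, 166 and 180.1 and Ifi35 at 173, 277 and 197. These calls and that of Eif2ak2 in 1G12t were each lost without EV+IL-2 replicate 1 or 2 and without at least 1 of the 1G12t libraries, and that of Ifih1 in 3A10t without EV+IL-2 replicate 1. Oasl1 was higher than EV+IL-2 in 3A10t, at 1.83, 3.95 and 2.64 against 0.494, 0.0715 and 1.10 (log2 fold change 1.31, SE 0.38, adjusted p = 0.030, limma), at levels near 1 scaled TPM in EV+IL-2, and it was not called without EV+IL-2 replicate 1 or 2 or without 3A10t replicate 2 or 3.

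The 2 tethered groups carry the same linker and receptor chain and differ in the tethered variant. Between them, limma called 1 of the 40 members (2.5%, against 4.27% of all genes tested, 1.3% higher and 2.96% lower, and 6.56% with the replicate block, which called the same member), and 9 had an unadjusted p under 0.05 (29.7% of all genes). The median log2 fold change of 3A10t against 1G12t was −0.18 over the members and −0.02 over all genes, and with TPM as deposited −0.36 and −0.18. Without 1G12t replicate 3 the medians were −0.03 over the members and −0.01 over all genes. The member called was Herc6, lower in 3A10t with a log2 fold change of −0.67 (SE 0.16, adjusted p = 0.046, limma), and the call held under 5 of the 15 alternatives. Irgm2, Ifit2 and Trim30a had log2 fold changes of −0.67, −0.74 and −0.52 that did not pass. All 3 libraries of 3A10t lay below all 3 of 1G12t for 4 members, Isg15, Herc6, Ifit2 and Trim30a. They lay above for 4 others (10%), Zbp1, Bst2, Ifi47 and Lgals3bp. The share of all genes with such a separation is not given here. Without 3A10t replicate 1, 9 members were called, 3 higher and 6 lower (22.5%, against 27.3% of all genes).

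Motifs in the promoters were set beside the calls. Of the 11 members that rose in EV+IL-2 over EV no IL-2, 8 had a RefSeq window, and the ISRE letters were in 4 of the 8, those of Bst2, Ddx58, Eif2ak2 and Ifih1. They were in 11 of the 24 windows of members that were not called or not tested, which include the Isg15 and Ifit stretches printed above. In Ddx58, Eif2ak2 and Ifih1 the match lay after the start site, so that wholly before it the letters were in 1 of the 8 windows, that of Bst2, and in 11 of the 24. The GAS letters were in 3 of the 8 windows of members that rose, in 5 of the 24 others, and in that of Irf8, which fell.

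The genes that carry the interferon signal were measured in the same libraries. A list of 43 genes of interferons, receptors, kinases, Stat factors, adaptors and inhibitors had 31 members tested. None of the interferon genes listed passed the filter on low expression. The highest value of any was 2.63 scaled TPM for Ifng in 1G12t replicate 3, and Ifnb1 was listed at 0, 0 and 0.0492 in EV+IL-2 and at 0.570, 0.361 and 0.214 in EV no IL-2. Both chains of the type I receptor were present, Ifnar1 at 145, 164 and 165 in EV no IL-2 and 125, 135 and 130.0 in EV+IL-2, and Ifnar2 at 58.4, 59.4 and 55.8 and 60.5, 57.1 and 55.6. Ifnlr1, the receptor for type III interferons, stayed under 1 scaled TPM in all 12 libraries.

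In EV+IL-2 against EV no IL-2, 3 genes of this list rose and 3 fell (19.4% of the 31, against 13.3% of all genes). Socs1, an inhibitor of Jak kinases that cytokines induce, rose, at 453, 465 and 406 scaled TPM against 199, 192 and 155 (log2 fold change 1.28, SE 0.12, adjusted p = 6.0e-05, limma). Ifngr1 rose by 0.33 on the log2 scale without the replicate block and was not called with it. Jak1, the kinase shared by interferon and IL-2 receptors, fell, with a log2 fold change of −0.57 (SE 0.13, adjusted p = 0.015, limma), and the DNA exonuclease Trex1 had a log2 fold change of −0.52. The median of the list was −0.06, against 0.41 over the 40 members tested of the 44 interferon-stimulated genes. Stat2, a subunit of ISGF3 with Irf9, was at 33.5, 36.9 and 38 in EV no IL-2 against 41.9, 42.7 and 35.3 in EV+IL-2, 28.8, 38.7 and 35.1 in 1G12t and 26.3, 20.7 and 21.3 in 3A10t. The 3A10t libraries were the 3 lowest, and Stat2 was lower in 3A10t than in EV no IL-2 (−0.65, SE 0.13, adjusted p = 0.038, limma), in EV+IL-2 (−0.79) and in 1G12t (−0.56). Against EV no IL-2, 3A10t had 2 genes of the list lower (6.45% of the 31, against 1.6% of all genes). They were Stat2 and the RNA editor Adar, the latter not with the replicate block. In 1G12t against EV no IL-2, 0 genes of the list were called, and 0 had an unadjusted p under 0.05 (7.04% of all genes).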

How the data were processed

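RNA was measured by bulk RNA sequencing in the 12 libraries. Per the submitters' processing notes, the authors used cutadapt 1.18, STAR 2.5.3, RSEM 1.3.0 and DESeq2 1.26, with the builds mm10 and GRCm38. The deposited values are TPM per gene symbol, normalized for transcript length and library total, so that depth and counting error cannot be recovered and a count test was not run. No column of per-sample values was left out.

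TPM were divided by median-of-ratios factors of the libraries and tested as log2(scaled TPM + 1) in limma 3.58.1 (R 4.3.3), with all 12 libraries in the fit, the 4 groups as terms, an intensity trend, and Benjamini-Hochberg adjustment over the 15043 genes whose TPM averaged 1 or more. The procedure was tested on simulated data. Library groups came from the labels. The 44 members and all gene lists were chosen with earlier results of these data known. All members may be named, standard errors and adjusted p are given for members called, up to the 14 of largest change per comparison, and genes of other lists are named where called or where they are ligands, receptors, kinases or Stat factors. Some genes of these lists are counted but not reported here by name.

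The labels tie a replicate number to a shared sort. Deviations from the group means correlated by 0.041 on average over the 18 pairs that share a number (−0.11 to 0.15, 3 of them over 0.1) and by −0.020 over the other pairs. A fit with the replicate number as a block was run as an alternative. The others were pseudocounts of 0.1 and 5, no filter on low values, a minimum mean TPM of 5, TPM as deposited, no intensity trend, quantile normalization, a fit of the 6 libraries compared alone, and each library left out in turn. Positions were taken from RefSeq promoter windows on GRCm38.p6.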

Additional observations from a re-analysis of the deposited data

How the results depend on the processing

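With the replicate block, the numbers of members called were 10 in EV+IL-2 against EV no IL-2, 0 in 3A10t and 0 in 1G12t against EV no IL-2, 18 and 12 in 3A10t and 1G12t against EV+IL-2, and 1 in 3A10t against 1G12t. The calls it changed were those of Xaf1 and Ifi27l2a in the first and Samd9l in 3A10t against EV+IL-2, and it changed no other call of a member. With all libraries, 12 members were called in EV+IL-2 against EV no IL-2 (13.3% of all genes). Leaving out 1 library at a time gave 6 to 12 (8.26% to 9.88% of all genes). It gave 0 to 11 in 3A10t against EV no IL-2 (0.166% to 23.1% of all genes) and 11 to 18 in 3A10t against EV+IL-2 (12.7% to 34.2%). In 1G12t against EV+IL-2 it gave 8 to 13 (12.9% to 17.5%), and in 3A10t against 1G12t 0 to 9 (0.259% to 27.3%). In 3A10t against EV no IL-2, 1 member (Irgm2) was called with a minimum mean TPM of 5 (3.03%, against 3.88% of all genes). The same gene was the 1 called with TPM as deposited (2.5%, against 3.32%). With only the 6 libraries compared, 11 members were called in 3A10t against EV+IL-2 (27.5%, against 12.6% of all genes). Herc6, the 1 member called in 3A10t against 1G12t, was not called, leaving 0, with a pseudocount of 5, with quantile normalization, with no filter on low values, without the intensity trend and in the fit of the 6 libraries alone. For 1G12t against EV no IL-2 the count was 0 under every alternative run. The cause of these changes was not tested. No log2 fold change of a called member reversed, and 116 of the refits of single called members missed the threshold. Over all genes, the count in 3A10t against EV no IL-2 was 308 with all libraries, 499 with TPM as deposited, 4 with only the 6 libraries compared and 3469 without 3A10t replicate 1.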

Other observations

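A second list of 64 genes known to be induced by interferon, which holds none of the 44 members, had 56 genes tested. In EV+IL-2 against EV no IL-2, 7 of them rose and 4 fell (19.6% in either direction, against 13.3% of all genes tested), at an adjusted p under 0.05 in limma. Their median log2 fold change was −0.04, against 0.41 over the 40 members tested and −0.01 over all genes. Those that rose were Slfn9, a Schlafen gene, Plac8, the Ly6 family surface antigens Ly6c1 and Ly6e, the aminopeptidase Lap3, Parp12 and Nlrc5, the transactivator of MHC class I genes, with log2 fold changes of 0.89, 0.93, 1.11, 1.13, 0.61, 0.85 and 0.95. Those that fell were Ifi209, Apol9a, Apol9b and Shisa5, with −0.53, −0.81, −0.81 and −0.43. Ly6e was at 967, 965 and 915 scaled TPM in EV no IL-2 and 2132, 2062 and 2044 in EV+IL-2, and Nlrc5 at 32.8, 44 and 33.6 and 69.1, 67.7 and 78.2, without overlap. Ifi209 was the 1 gene of these 11 that was not called with the replicate block.

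In the tethered groups the same list gave 1 call in 3A10t against EV no IL-2 (1.79%, against 2.05% of all genes), the mitochondrial exoribonuclease Pnpt1 at a log2 fold change of −0.72. It gave 0 in 1G12t against EV no IL-2, where 3 genes had an unadjusted p under 0.05. In 3A10t against EV+IL-2, 17 of the 56 were called (30.4%, against 23.4% of all genes), 4 higher and 13 lower. In 1G12t against EV+IL-2, 18 were called (32.1%, against 20.6% of all genes), 9 higher and 9 lower. Between 3A10t and 1G12t, limma called 6 of the 56 genes (10.7%, against 4.27% of all genes). Plac8 was higher in 3A10t, by 0.94, and Slfn8, Setdb2, Parp11, Cd274 and Pnpt1 were lower, with log2 fold changes of −0.78, −0.52, −0.50, −0.90 and −0.61. Cd274, the checkpoint ligand PD-L1, was at 8.87, 5.28 and 6.58 scaled TPM in 3A10t and 12.6, 13.2 and 14.9 in 1G12t, and the groups did not overlap.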
